A study of Mus musculus with 12 samples.

Results

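Pituitary transcripts were followed in bulk RNA-seq libraries of mouse trigeminal ganglia, the paired ganglia at the base of the skull that hold the sensory neurons of the face. The 10 genes were taken by symbol out of 55416 genes in each count file, with no threshold on their values: Gh, Prl, Pomc, Cga, Lhb, Fshb, Tshb, Pou1f1, Ghrhr and Dlk1. All 10 were found. There were 12 libraries, 1 per adult C57Bl6 animal, taken 1 month after injection. The 6 inducible knockouts (iKO) had the genotype Rosa26Cre ERT2; Fl/Fl, with both copies of Prdm12 floxed, and received tamoxifen. Of the 6 controls, controls 1 to 4 received tamoxifen and carried Rosa26Cre ERT2; Fl/+ (control 1), +/+; Fl/+ (controls 2 and 3) or Rosa26Cre ERT2; +/+ (control 4). Corn oil was given to controls 5 and 6, whose genotype was that of the iKO animals. Rosa26 is active in most tissues, so the inducible Cre is not limited to ganglion neurons. Controls 1 and 2 and iKO 1, 2 and 3 were female (5 animals) and the other 7 animals were male. The labels do not say how the ganglia were separated from neighbouring tissue beyond microdissection.

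The anterior pituitary lies between the left and right trigeminal ganglia, and each of its cell types makes its own hormone. Somatotrophs make growth hormone, lactotrophs prolactin and thyrotrophs the beta subunit of thyroid-stimulating hormone, and all of these cells depend on the transcription factor Pou1f1. Corticotrophs of the anterior lobe and melanotrophs of the intermediate lobe make Pomc, the precursor of ACTH and alpha-MSH, and gonadotrophs make the beta subunits of luteinising and follicle-stimulating hormone. The hormone messages are among the most abundant in the gland.

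Total counts ran from 13207526 to 24178970 per library, and a count of 0 allows up to 0.124 CPM (reads of a gene scaled to the depth of its library) in the deepest and 0.227 CPM in the shallowest. Prdm12 ran from 13.2 to 19.1 CPM in iKO and from 56.8 to 133 CPM in controls, with no overlap between the groups. All 8 sensory neuron markers and all 6 Schwann and satellite glia markers were detected, with summed levels of 5020 to 6954 CPM and 6372 to 8819 CPM. The library iKO 3 stood apart from the other 11 in the pituitary genes, and control 2 came next. The members took 0.285% of all counts in iKO 3, 0.0699% in control 2 and 0.000982% in iKO 6. Of the 9 members with any count, 9 were highest in iKO 3, which alone held 71.2% of all counts of the members, so results are given with and without it. The share of all genes highest in iKO 3 was not counted.

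Gh, growth hormone of somatotrophs, was present in every library. In controls 1 to 6 it measured 38.8, 332, 15.2, 17.6, 124 and 4.61 CPM. In iKO 1 to 6 it measured 19.3, 131, 1313, 36.2, 10.7 and 2.51 CPM. The levels spread over both groups without a break between them, and iKO held both the highest and the lowest value, which differed 522-fold. The lowest library, iKO 6, still had 49 reads of Gh, well above the limit of 3 counts, while iKO 3 had 31138 and so 71.1% of all Gh reads. The highest library was 47.3 times the median library. Only 0.835% of the 16637 genes kept by the expression filter exceeded 10 times their median in 1 library (139 genes), and Gh ranked 7th by this ratio. In these bulk libraries, fewer pituitary cells and less RNA per cell cannot be told apart.

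**Figure D1:**
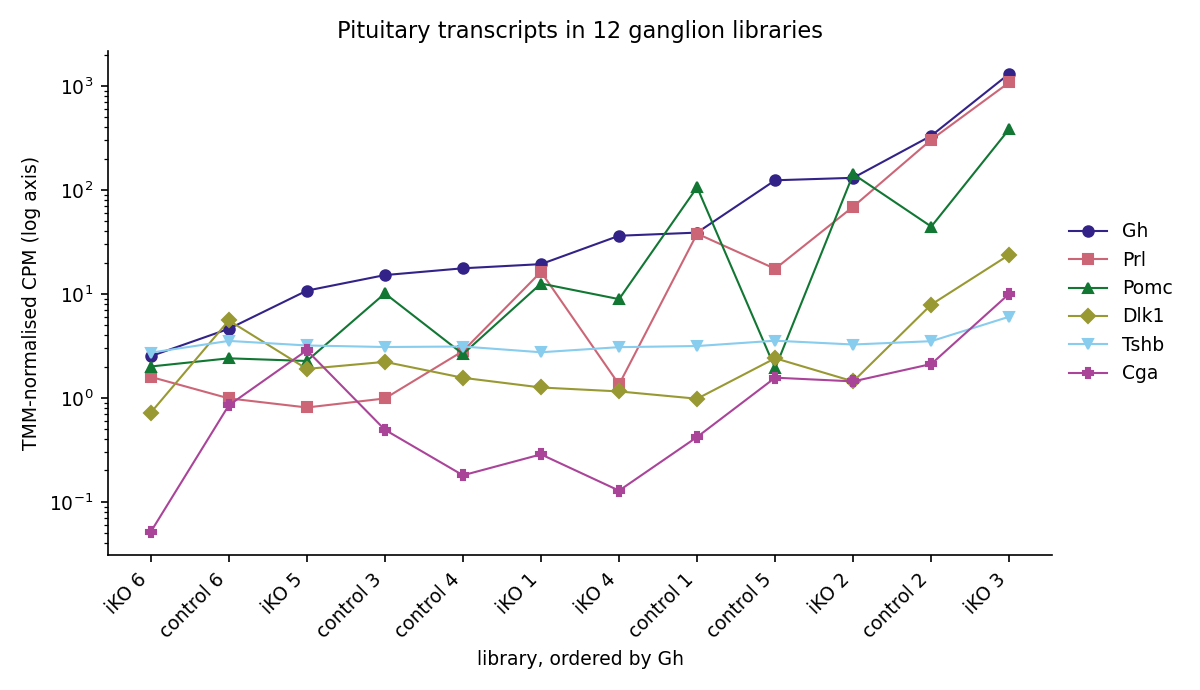
TMM-normalised CPM (log axis) of the 6 members kept by the expression filter, in the 12 libraries ordered by their Gh level. Gh runs from 2.51 to 1313 CPM, Prl follows it at the upper end, Pomc peaks in control 1, iKO 2 and iKO 3, and Tshb stays between 2.72 and 3.54 CPM in every library but iKO 3.

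Prl, prolactin of lactotrophs, had the widest spread of the members. Its levels in controls 1 to 6 were 37.9, 304, 0.986, 2.82, 17.4 and 0.988 CPM. In iKO 1 to 6 they were 16.3, 69.0, 1084, 1.34, 0.807 and 1.59 CPM. The 2 highest libraries were those highest in Gh, iKO 3 and control 2, but the lowest was iKO 5, where Gh was not lowest. The highest library was 114 times the median, the 2nd largest such ratio among 16637 genes, and iKO 3 held 76.1% of all Prl reads. The 5 female libraries ran from 16.3 to 1084 CPM and the 7 male libraries from 0.807 to 17.4 CPM, overlapping only through control 5.

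Promoter windows are shown for the 5 kept members other than Gh and for Pou1f1, so that the letters before the start of Prl can be read beside the rest. Of the 10 members 8 had an entry in the RefSeq promoter table of GRCm38.p6, and Gh was not among the entries. Each window is the 250 bases before the gene's start on the gene's own strand, 5′ to 3′. They lie at chr13:27057320-27057569 (plus strand) for Prl, chr12:3954695-3954944 (plus strand) for Pomc, chr4:34893529-34893778 (plus strand) for Cga, chr3:102782715-102782964 (minus strand) for Tshb, chr12:109452573-109452822 (plus strand) for Dlk1 and chr16:65520262-65520511 (plus strand) for the first of 2 Pou1f1 entries. Capitals mark matches to TATNCAT, the core of the site bound by Pou1f1, or to its reverse complement ATGNATA.
Prl: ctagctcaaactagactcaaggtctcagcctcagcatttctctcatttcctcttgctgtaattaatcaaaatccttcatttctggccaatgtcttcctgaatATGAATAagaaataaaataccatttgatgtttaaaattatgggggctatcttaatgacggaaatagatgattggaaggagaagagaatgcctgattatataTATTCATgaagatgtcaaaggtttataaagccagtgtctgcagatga
Pomc: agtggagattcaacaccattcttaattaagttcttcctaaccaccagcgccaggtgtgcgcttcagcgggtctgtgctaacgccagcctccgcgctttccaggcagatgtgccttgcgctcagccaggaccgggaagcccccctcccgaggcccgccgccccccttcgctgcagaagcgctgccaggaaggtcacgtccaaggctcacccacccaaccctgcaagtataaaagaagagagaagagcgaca
Cga: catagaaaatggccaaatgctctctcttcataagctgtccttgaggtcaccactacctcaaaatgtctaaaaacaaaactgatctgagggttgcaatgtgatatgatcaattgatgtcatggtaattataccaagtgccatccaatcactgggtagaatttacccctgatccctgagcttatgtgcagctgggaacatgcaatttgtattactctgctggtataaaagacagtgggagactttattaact
Tshb: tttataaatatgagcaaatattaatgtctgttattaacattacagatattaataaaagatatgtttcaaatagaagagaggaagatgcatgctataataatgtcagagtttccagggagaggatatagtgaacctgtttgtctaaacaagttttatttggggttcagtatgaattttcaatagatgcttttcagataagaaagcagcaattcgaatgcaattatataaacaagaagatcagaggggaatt
Dlk1: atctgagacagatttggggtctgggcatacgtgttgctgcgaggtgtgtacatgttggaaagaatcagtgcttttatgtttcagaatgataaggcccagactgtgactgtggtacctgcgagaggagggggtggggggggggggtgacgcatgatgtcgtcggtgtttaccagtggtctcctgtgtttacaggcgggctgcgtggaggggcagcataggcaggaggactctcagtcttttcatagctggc
Pou1f1: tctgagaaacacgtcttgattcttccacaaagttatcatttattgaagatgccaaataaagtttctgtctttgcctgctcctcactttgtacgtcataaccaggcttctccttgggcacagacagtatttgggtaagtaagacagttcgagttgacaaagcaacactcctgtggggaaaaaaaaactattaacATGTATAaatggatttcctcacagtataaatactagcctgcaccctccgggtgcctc
The Prl window held 2 matches, 1 on each strand, whose first letters lie 47 and 148 bases before the start. The Pou1f1 window shown held 1 match, on the opposite strand, whose first letter lies 57 bases before the start. The other Pou1f1 window and those of Pomc, Cga, Tshb, Dlk1, Lhb and Fshb held none. Of 32851 windows of this length in the table, 2603 (7.92%) held at least 1 match. A match is a run of letters and was not tested for binding.

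Pomc, made by corticotrophs and melanotrophs, followed another order of libraries. Controls 1 to 6 had 106, 44.4, 10.1, 2.64, 1.92 and 2.40 CPM. The iKO libraries 1 to 6 had 12.6, 142, 386, 8.90, 2.26 and 2.00 CPM. After iKO 3 the highest libraries were iKO 2 and control 1, not control 2, and control 5, the 4th highest in Gh, was the lowest of all in Pomc. The 5 female libraries ran from 12.6 to 386 CPM and the 7 male libraries from 1.92 to 10.1 CPM. A difference between the sexes was not tested for Prl or Pomc. The share of all genes split this way by sex was not counted. The highest library was 40.6 times the median, the 8th largest ratio.

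Other genes listed for the Pomc cells ranged from a few reads to well over 100 CPM, and they did not all share the order of Pomc. Tbx19, the transcription factor that switches on Pomc, had 82 reads in all and was highest in iKO 3 at 1.56 CPM, with 0.0470 to 0.682 CPM elsewhere. Pax7, which specifies melanotrophs, was highest in control 1 (1.12 CPM) and next in iKO 2 (0.909 CPM) and iKO 3 (0.844 CPM), the same 3 libraries that were highest in Pomc. Oacyl, listed here as a melanotroph gene, ran at 3.99 CPM in control 1, 4.55 CPM in iKO 2 and 7.55 CPM in iKO 3. In the other 9 libraries Oacyl ran from 0.329 to 1.36 CPM, so those 3 libraries stood apart. Crhr1, the corticotroph receptor for corticotropin-releasing hormone, had another order, with its highest level in control 3 (4.81 CPM) and its lowest in control 1 (2.03 CPM), where Pomc was high. The receptor Avpr1b, carried by corticotrophs, had 10 reads over all libraries. The convertases Pcsk1 and Pcsk2, which cut Pomc, were 108 to 158 CPM and 207 to 256 CPM in all libraries and are also made by sensory neurons.

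The glycoprotein hormones share the alpha subunit Cga and differ in their beta subunit. Cga measured 0.420, 2.11, 0.49, 0.18, 1.56 and 0.847 CPM in controls 1 to 6. In iKO 1 to 6 it measured 0.286, 1.44, 10.04, 0.128, 2.87 and 0.0513 CPM. The highest library was iKO 3, followed by iKO 5, a library with only 10.7 CPM of Gh. Counts were low: 6 of 12 libraries had at least 10 reads, and iKO 6 had 1. Fshb, the beta subunit of follicle-stimulating hormone, had 65 reads in all, 20 of them in iKO 3 and 11 in iKO 5, and 0 in iKO 1 and iKO 6. Lhb, the beta subunit of luteinising hormone, was at 0 in all 12 libraries. In iKO 3 a count of 0 allows up to 0.127 CPM. Lhb overlaps in part with Ruvbl2 on the opposite strand, which was at 22.5 to 32.6 CPM, and how reads in the overlap were counted is not given, so the 0 does not bound the hormone's message firmly.

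Tshb, the beta subunit of thyroid-stimulating hormone, was nearly level. It measured 3.08 to 3.54 CPM in controls and 2.72 to 3.26 CPM in iKO 1, 2, 4, 5 and 6, against 6.03 CPM in iKO 3. Its whole locus lies inside that of Tspan2 on the opposite strand, and the libraries do not mark strand. The overlap was taken from whole gene spans, not exons, so how far reads of the 2 genes can be told apart there is not known. Tspan2 ran from 85.2 to 132 CPM and was at 96.2 CPM in iKO 3, inside the range of the other libraries. Of the other thyrotroph genes, the receptor Trhr had 49 reads in all and was highest in control 1, at 0.420 CPM. Prl, Cga and Pou1f1 overlap in part with non-coding genes on the opposite strand, to which the same limit applies.

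Among the regulators and surface genes, Pou1f1 and Ghrhr had most of their reads in the 2 libraries highest in Gh, though each was seen in 10 of 12 libraries. Pou1f1, the factor shared by somatotrophs, lactotrophs and thyrotrophs, had 113 of its 156 reads in iKO 3 (4.77 CPM) and 14 in control 2 (0.722 CPM). Control 5 had 9 reads and no other library more than 5. Ghrhr, the receptor for the hypothalamic hormone that releases growth hormone, had 95 of 141 reads in iKO 3 (4.01 CPM), 29 in control 2 (1.495 CPM) and at most 3 elsewhere. Both were thus highest in iKO 3 and next in control 2, but for Pou1f1 control 2 lay only a few reads above control 5. Both failed the expression filter. Dlk1, a Notch-related surface protein of somatotrophs and of connective tissue precursors, measured 0.980, 7.89, 2.22, 1.56, 2.40 and 5.55 CPM in controls 1 to 6. It measured 1.26, 1.44, 23.8, 1.15, 1.90 and 0.718 CPM in iKO 1 to 6. Dlk1 was thus high in iKO 3 and control 2, but also in control 6, where Gh was at 4.61 CPM.

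Levels per kilobase of exon used the union of each gene's annotated exons. That length was 862 bases for Gh and 954 for Cga, but 4555 for Tshb and 5657 for Dlk1. The union can be longer than the transcript made, which lowers the value, so levels of different genes compare only roughly. The mean level over 12 libraries was 198 CPM per kb for Gh, 91.0 for Prl and 45.6 for Pomc. It was 1.78 CPM per kb for Cga and 0.749 for both Tshb and Dlk1. Fshb, Ghrhr and Pou1f1 were at 0.174, 0.157 and 0.156 CPM per kb. Gh was above Prl in 12 of 12 libraries and above Pomc in 11, the exception being control 1. Prl was above Pomc in 4 of 12 libraries, so the order of these neighbours changed between libraries. Cga was above Tshb in 6 of 12, Tshb above Dlk1 in 9, Fshb above Ghrhr in 8 and Ghrhr above Pou1f1 in 5, and none of these neighbours kept 1 order. Gh, Prl and Pomc together held 97.2% of all reads of the members.

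Whether the hormones varied together was asked first across all genes, with edgeR's quasi-likelihood test of the slope on log2(CPM + 1) of Gh and with group and sex as covariates. A gene was called at a Benjamini-Hochberg adjusted p under 0.05. Prl rose with Gh and was the 1 gene called of 16636 (0.00601%), while 6.02% of them had an unadjusted p under 0.05. Its slope was 0.98 ± 0.0735 (SE), a slope of 1 meaning equal fold changes, with a 95% interval from 0.82 to 1.14 and an adjusted p of 0.000269. Without iKO 3 the slope was 0.85 and Prl was not called (adjusted p = 0.212), and over replicates 1 to 4 alone it was 1.02 (adjusted p = 0.000158). With the replicate number added to the fit as a block, 0 genes were called, so Prl lost its call there too.

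The other kept members had positive slopes on Gh that did not pass (edgeR adjusted p = 0.728 for each). The slopes were 0.59 ± 0.194 for Cga, 0.48 ± 0.175 for Dlk1, 0.41 ± 0.170 for Pomc and 0.12 ± 0.0379 for Tshb. Their 95% intervals ran from 0.17 to 1.02, 0.10 to 0.86, 0.04 to 0.79 and 0.03 to 0.20, and all but that of Cga lay below 1. Without iKO 3 these slopes were 0.44, 0.10, 0.22 and 0.04. With no filter on low counts 4 of 36538 genes were called (0.0109%): Prl, Pou1f1 with a slope of 0.84 ± 0.109 (adjusted p = 0.00799), Ghrhr with 0.76 ± 0.115 (adjusted p = 0.0429) and the predicted gene Gm14617 with 1.14 ± 0.176. With no filter and without iKO 3, Prl alone was called of 36111 genes (0.00277%), with a slope of 0.84 ± 0.0951 (adjusted p = 0.00483). Pou1f1 and Ghrhr then each had a slope of 0.64 and were not called (adjusted p = 0.961). With a minimum of 50 reads over the libraries, Prl alone was called of 19319 genes (0.00518%), and the slopes of Pou1f1 and Ghrhr were 0.84 and 0.76 with adjusted p = 0.0755 and 0.177. Fshb had a slope of 0.42 ± 0.168 in that fit (adjusted p = 0.751). These 3 genes had 43 (Pou1f1), 46 (Ghrhr) and 45 (Fshb) reads outside iKO 3, so they reached the minimum of 50 only through the library where they were highest, and their slopes in that fit are given as description.

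**Figure D2:**
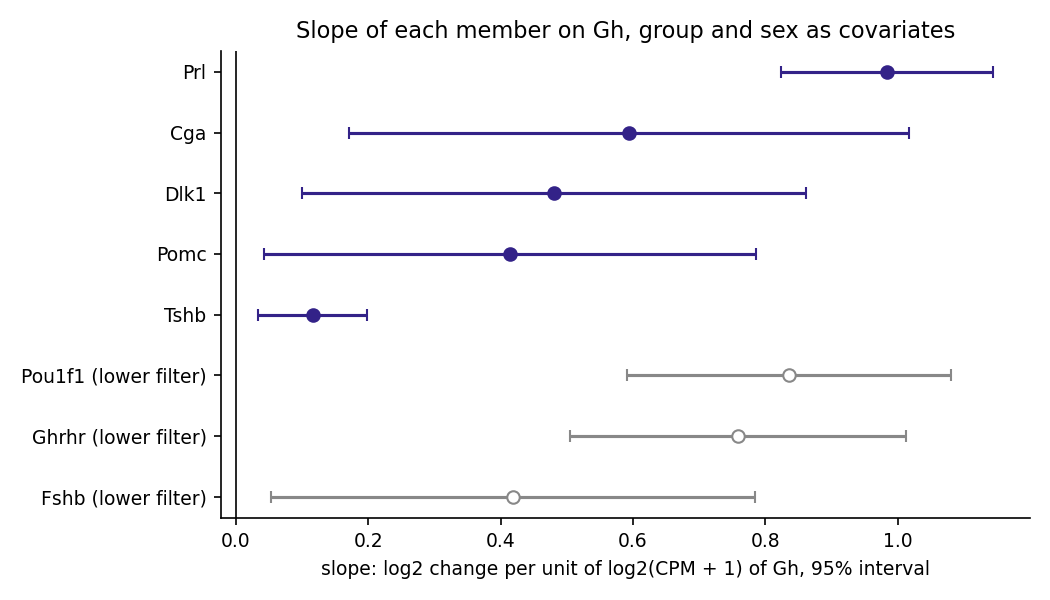
Slope of each member on log2(CPM + 1) of Gh from edgeR with group and sex as covariates, with 95% intervals over 12 libraries. Filled points come from the fit with the expression filter and open points from the fit with at least 50 reads, a minimum that Pou1f1, Ghrhr and Fshb reached only through iKO 3. Prl lies at 0.98 and Tshb at 0.12.

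The same test on log2(CPM + 1) of Pomc called 0 of 16636 genes (0.0%), while 188 (1.13%) had an unadjusted p under 0.05. The slopes of Gh and Prl on Pomc were 0.97 ± 0.436 and 0.93 ± 0.394, with an edgeR adjusted p of 1.0 for each. The smallest p belonged to Oacyl (slope 0.75 ± 0.125, edgeR adjusted p = 1.0).

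Pairs of members were then compared directly by Pearson's r and Spearman's rho of log2(CPM + 1) over 12 libraries, for the 5 genes with at least 10 reads in at least 9 libraries (10 pairs, permutation tests with 100000 resamples, adjusted over the pairs). Gh and Prl had r = 0.905 (permutation p = 0.00013, adjusted 0.00075) and rho = 0.867 (adjusted permutation p = 0.0071). Without the 2 libraries farthest from the median of Gh, iKO 3 and control 2, r was 0.746 (permutation p = 0.0144). By this p, which was not adjusted over the pairs, the relation of Gh and Prl remained in the other 10 libraries, which hold both sexes. Gh and Pomc had r = 0.755 (permutation p = 0.00445, adjusted 0.0089) and rho = 0.678 (adjusted permutation p = 0.0613), and without the same 2 libraries r was 0.549 (permutation p = 0.0978). Prl and Pomc had r = 0.841 (adjusted permutation p = 0.0034) and rho = 0.650 (adjusted permutation p = 0.0651), and without those libraries r was 0.754 (permutation p = 0.0128) and rho 0.430 (permutation p = 0.218). By r 9 of 10 pairs passed, all but Pomc and Dlk1 (r = 0.456), but by rho only Gh with Prl and Tshb with Dlk1 did.

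Most of the remaining relations did not pass without iKO 3, nor did that of Gh and Pomc (r = 0.607, adjusted permutation p = 0.120). Gh and Tshb went from r = 0.748 (adjusted permutation p = 0.0089) to 0.5261 without iKO 3 and 0.403 without control 2 as well. Gh and Dlk1 went from 0.663 (adjusted permutation p = 0.0267) to 0.338 and -0.14, Prl and Tshb from 0.681 (adjusted permutation p = 0.0236) to 0.322 and 0.10, and Prl and Dlk1 from 0.645 (adjusted permutation p = 0.0272) to 0.309 and -0.30. The last 3 pairs also failed without control 2 alone (r = 0.607, 0.730 and 0.578), and both pairs with Dlk1 without iKO 6 (r = 0.620 and 0.618). Pomc and Tshb went from 0.57 (adjusted permutation p = 0.0447) to 0.0785 without iKO 3 and 0.0204 without iKO 2 as well. That pair lost its call in 8 of 12 single omissions, with r from 0.5264 to 0.642 in the 7 other than iKO 3. Tshb and Dlk1 had r = 0.905 (adjusted permutation p = 0.00075) and rho = 0.811 (adjusted permutation p = 0.0106), and r was 0.709 (permutation p = 0.0210) without iKO 3 and iKO 6. Tshb carries the limit of the overlapping Tspan2 locus in each of these pairs.

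The female libraries lay mostly higher in Pomc and Prl, which was not tested. The pairs were therefore also taken within the 7 male libraries, the females being too few at 5. Among males none of the 10 pairs passed after adjustment. Gh and Prl had r = 0.748 (exact permutation p = 0.0589), Gh and Pomc 0.185 (exact permutation p = 0.703) and Prl and Pomc -0.37 (exact permutation p = 0.428). In residuals after group and sex over all 12 libraries, Gh and Prl had r = 0.892 (adjusted permutation p = 0.0009), Gh and Pomc 0.545 (adjusted permutation p = 0.0820) and Prl and Pomc 0.436 (adjusted permutation p = 0.171). The relation of Prl and Pomc thus did not hold within males or after removing group and sex together, and that of Gh and Prl passed in the residuals but not among males. Over replicates 1 to 4 alone (8 libraries) Gh and Prl had r = 0.918 (adjusted exact permutation p = 0.00608). The 4 libraries of replicates 5 and 6 were too few for a value.

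**Figure D3:**
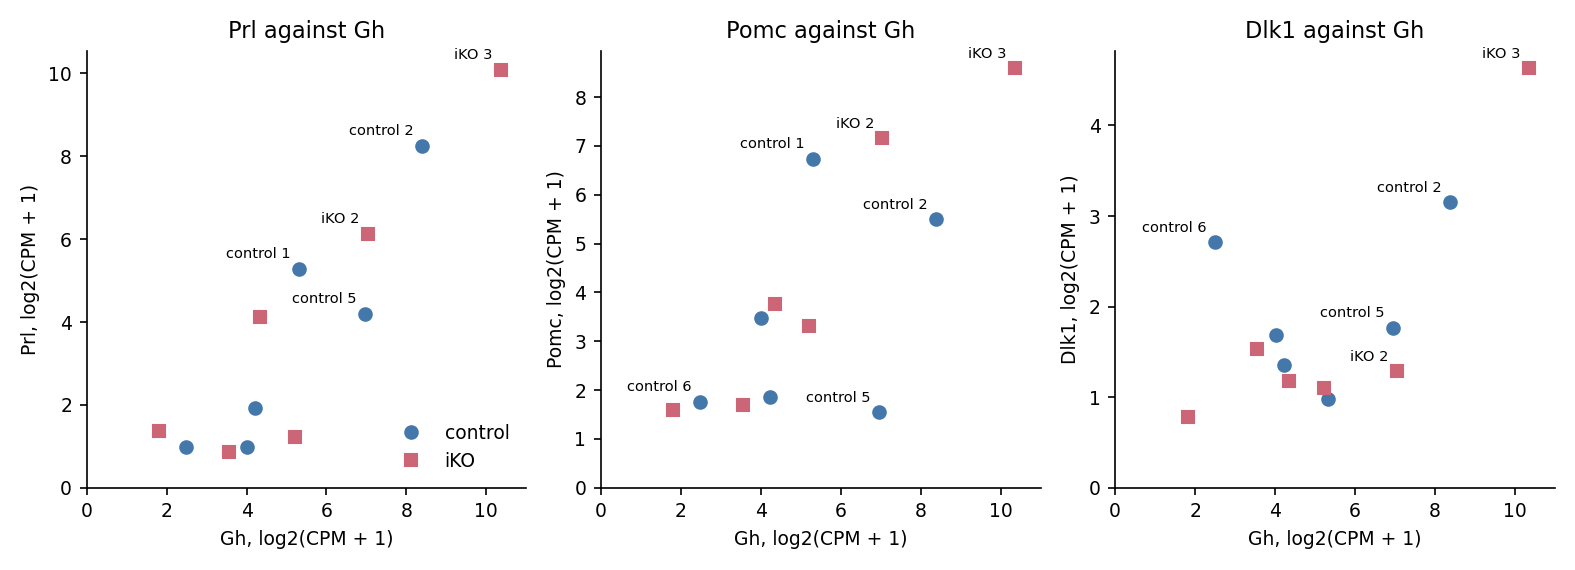
Prl, Pomc and Dlk1 against Gh, each as log2(CPM + 1), 1 point per library (circles, control; squares, iKO). Pearson's r is 0.905 for Prl, 0.755 for Pomc and 0.663 for Dlk1, and control 5 lies low in Pomc and control 6 high in Dlk1 for their Gh.

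The mix of transcripts was not constant between libraries. The ratio of Prl to Gh ran from 0.0371 in iKO 4 to 0.977 in control 1, a 26.3-fold range. The 5 female libraries lay between 0.528 and 0.977. The 7 male libraries lay between 0.0371 and 0.633, with iKO 6 at 0.633 resting on 31 reads of Prl and 49 of Gh. Pomc to Gh ran from 0.0155 in control 5 to 2.73 in control 1, a 176-fold range, with 1.09 in iKO 2, 0.294 in iKO 3 and 0.134 in control 2. Control 5, with 124 CPM of Gh and 1.92 CPM of Pomc, and control 1, with 38.8 and 106 CPM, mark the ends of that range. Cga to Gh was 0.267 in iKO 5 and 0.184 in control 6 and at most 0.0325 elsewhere. Dlk1 to Gh ran from 0.0110 in iKO 2 to 1.204 in control 6. As shares of the members' reads, Gh took from 20.7% in control 1 to 81.6% in control 5, Prl from 2.62% in iKO 4 to 43.7% in control 2, and Pomc from 1.27% in control 5 to 56.3% in control 1.

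**Figure D4:**
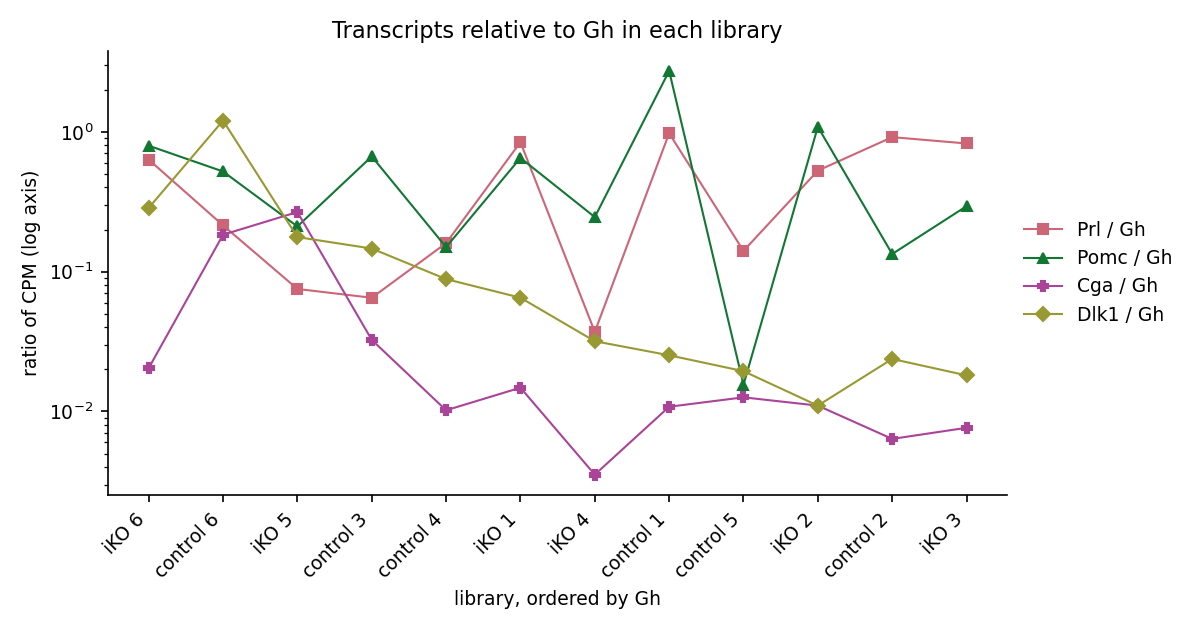
Ratio of the CPM of Prl, Pomc, Cga and Dlk1 to that of Gh (log axis) in each library, ordered by Gh, the denominator. Pomc to Gh spans 0.0155 to 2.73 and Prl to Gh spans 0.0371 to 0.977.

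Between iKO and control none of the 6 members kept by the filter was called, and the other members were not tested. In that edgeR fit, with sex as a covariate, 63 of 16637 genes (0.379%) were called and 10.9% had an unadjusted p under 0.05. The ranges of the groups overlapped for all 10 members, of which Lhb was at 0 throughout. Of the 16637 kept genes 1.2% (200) had groups that did not overlap. Gh averaged 88.7 ± 127 CPM in controls and 252 ± 522 CPM in iKO (mean ± SD, n = 6 each), or 39.9 ± 52.3 CPM in the 5 iKO libraries without iKO 3. Its log2 fold change was -0.14 ± 1.22 (SE, edgeR adjusted p = 0.980), and -1.32 ± 0.899 without iKO 3 (edgeR adjusted p = 0.569). Prl had 0.01 ± 1.29 (edgeR adjusted p = 0.999), and -2.07 ± 0.823 without iKO 3 (edgeR adjusted p = 0.310). Pomc had 0.74 ± 0.766, Cga 0.99 ± 0.932, Dlk1 -0.23 ± 0.841 and Tshb 0.03 ± 0.190, with edgeR adjusted p from 0.751 to 0.973. The 95% intervals were wide for all but Tshb, from -2.78 to 2.49 on the log2 scale for Gh, so large differences were not excluded. That of Tshb ran from -0.38 to 0.44.

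**Figure D5:**
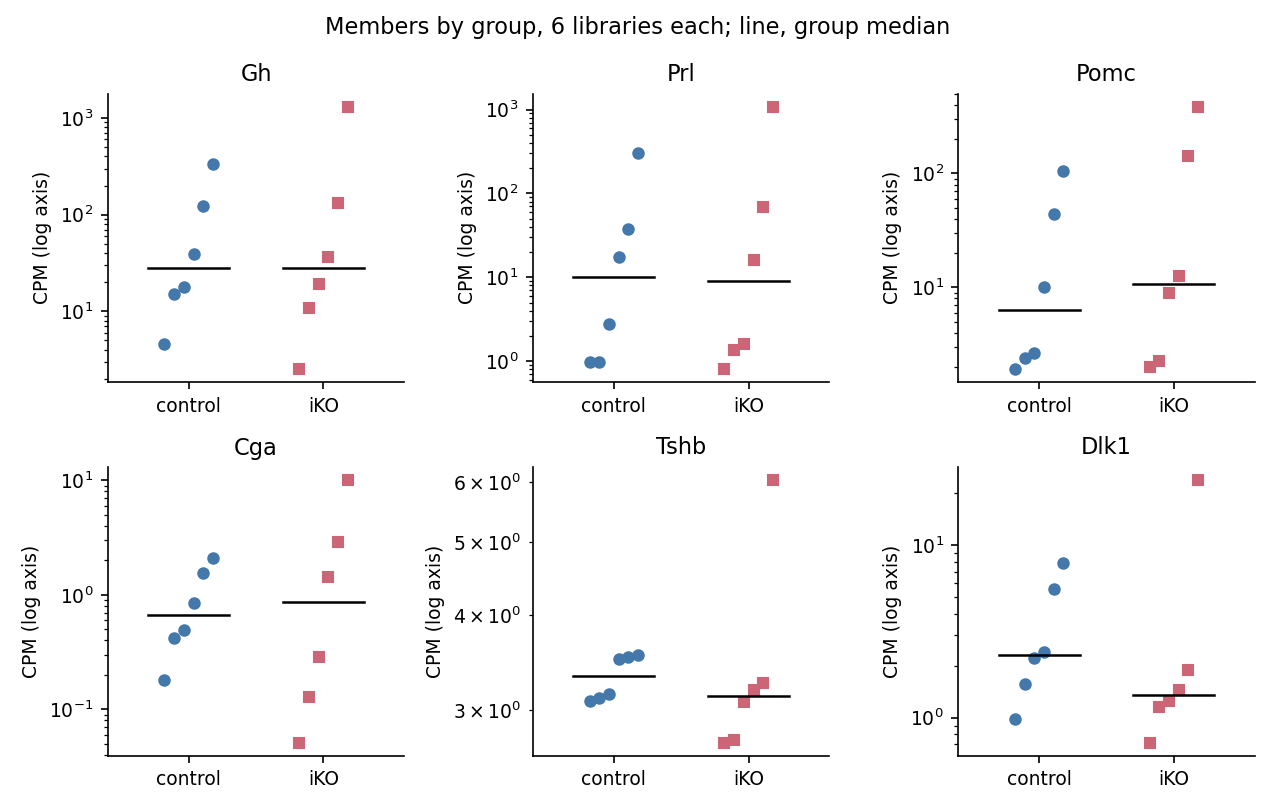
CPM (log axis) of the 6 kept members in control and iKO, 6 libraries each, with the group median as a line. The groups overlap in every panel, and iKO 3 is the highest point of each.

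The controls differ in kind, so the 2 sets of replicates were also contrasted. In replicates 1 to 4, where all 8 animals received tamoxifen, 19 of 16637 genes were called (0.114%) and none of the 6 kept members was. The log2 fold changes were 1.32 ± 1.199 for Gh, 1.00 ± 1.30 for Prl and 1.08 ± 0.80 for Pomc (edgeR adjusted p = 0.860, 0.906 and 0.824). In replicates 5 and 6, where tamoxifen was compared with corn oil in 1 genotype, 1 gene was called (0.00601%) and it was no member. Gh had -3.22 ± 1.84 and Prl -2.92 ± 2.40 (edgeR adjusted p = 0.707 and 0.813), and control 5 was the high library. The difference between the sets was 4.53 ± 2.19 for Gh and 3.92 ± 2.72 for Prl (edgeR adjusted p = 1.0 for each).

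The genes whose levels were most like Gh were ranked by Pearson's r of log2(CPM + 1) over 12 libraries, among the 15500 kept genes averaging 1 CPM or more. Prl came first at 0.905, ahead of Lilra5 (0.838), Samd15 (0.801), Rbm20 (0.786), Gpc4 (0.785), Ptch1 (0.784), Dleu7 (0.782), Arhgap31 (0.780), Plk2 (0.776) and Naalad2 (0.776). These genes differed little between libraries: Ptch1 ran from 55.2 to 80.1 CPM and Lilra5 from 1.6 to 3.42 CPM. Pomc ranked 19th, Tshb 22nd, Cga 26th and Dlk1 62nd.

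Beyond the members, 6 lists of pituitary cell types and transcription factors held 23 further genes, of which 8 passed the expression filter and none was called in any comparison or with either hormone. Of these 23 genes 12 were highest in iKO 3, 3 of them among the 8 that passed. The share of all genes highest in iKO 3 was not counted. Avpr1b, Nr5a1 and Gnrhr, which are among the 12, had 10, 17 and 24 reads over all libraries. Summed without the members, 4 of the 6 lists were highest in iKO 3, while the corticotroph and melanotroph list peaked in iKO 2 (394.5 CPM, against 386 in iKO 3) and the thyrotroph list in control 2 (4.74 CPM, against 2.87 in iKO 3). The somatotroph and lactotroph sums then held only 2 genes each. That of lactotrophs (30.5 CPM in iKO 3, 27.7 in iKO 4) was mostly Esr1, whose r with Gh was 0.054. Tbx19 and Nr5a1 were shared between lists, so the sums are not independent. Lhx3, a transcription factor of the whole anterior gland, was at 3.59 CPM in iKO 3, 1.14 CPM in iKO 2 and 0.980 CPM in control 2, with at most 0.423 CPM elsewhere. Neurod4, which acts in the somatotroph lineage, was at 1.86 CPM in iKO 3 and 1.29 CPM in control 2, with at most 0.431 CPM elsewhere. Other genes of these lists peaked elsewhere: Ghsr, the ghrelin receptor of somatotrophs, in control 3 (0.863 CPM, against 0.380 CPM in iKO 3), Pitx1, a factor of the whole gland, in iKO 6 (2.31 CPM, against 2.15 CPM in iKO 3), Gata2, a factor of thyrotrophs and gonadotrophs, in control 2 (4.54 CPM) and Lhx4 in control 1 (0.280 CPM). Six6, of the early gland, was at 2.66 CPM in iKO 3 and at most 1.04 CPM elsewhere. Of the gonadotroph genes, Gnrhr, the receptor for the releasing hormone of gonadotrophs, had 13 of 24 reads in iKO 3, and Nr5a1 9 of 17. Drd2, the dopamine receptor of lactotrophs and melanotrophs, ran from 2.26 to 6.62 CPM and was highest in iKO 3, with a slope on Gh of 0.14 ± 0.0465 (edgeR adjusted p = 0.728).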

How the data were processed

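RNA of trigeminal ganglia from 12 mice was selected for poly(A) and made into libraries that do not mark strand, per the labels' protocols. The authors deposited raw counts of reads per gene, 1 library per file. Per the submitters' processing notes, the build was GRCm39 and the tools were featureCounts 2.0.1, STAR 2.7.8a and bcl2fastq 2.20.0.422. The sources used here give neither the annotation release nor the counting options. Symbols (52083 of 55416 identifiers), exon lengths and overlapping genes came from GRCm38 tables, so no GRCm39 coordinates are given. Promoters and their coordinates came from RefSeq on GRCm38.p6.

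Tests on the counts used R 4.3.3 and edgeR 4.0.16 (filterByExpr by group, TMM with factors 0.969 to 1.02, quasi-likelihood test, Benjamini-Hochberg adjustment over all genes kept, threshold 0.05), after trials on simulated counts. Of the members 6 were kept and 4 were not. Levels are TMM-normalised CPM, with a pseudocount of 1 CPM on the log2 scale. Limits for a count of 0 take 3 counts and cover counting error only. Chi-square per degree of freedom between libraries of a group ran from 7.77 to 28.9, so none was a duplicate. The labels give 1 library per animal and do not describe pooling or litters. Members, lists and tests were chosen with earlier results of these data known. The rule for named genes took all members, the 10 genes most like Gh, called genes and up to 4 of each list; other list genes (Tbx19, Pax7, Oacyl, Avpr1b, Trhr, Lhx3, Neurod4, Six6, Gnrhr, Nr5a1, Drd2, Chgb, Crhr1, Ghsr, Pitx1, Gata2, Lhx4) were picked after their values were seen. Protein sequences were not used here. Alternatives included DESeq2 1.42.0, other filters, scalings and covariates, and leaving out each library.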

Additional observations from a re-analysis of the deposited data

Results flagged for a closer look

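Within each group of 6 libraries, the gap of the highest or lowest library to its neighbour was compared with the group's range by Dixon's criterion. Of 18 groups tested over the members with counts, 11 had a library that stood apart, and each time it was iKO 3 or control 2. Over the 6 kept members it was 8 of 12 groups, against 9.9% of 33274 groups over all kept genes (nominally chance gives about 1 in 20). The groups share libraries, so these are not independent.

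In iKO, the library iKO 3 stood apart for Gh (1313 CPM against 131 CPM in the next), Prl (1084 against 69.0), Pomc (386 against 142) and Cga (10.04 against 2.87). It stood apart likewise for Tshb (6.03 against 3.26 CPM), Pou1f1 (4.77 against 0.379), Ghrhr (4.01 against 0.227) and Dlk1 (23.8 against 1.90). In controls, control 2 stood apart for Gh (332 CPM against 124), Prl (304 against 37.9) and Ghrhr (1.495 against 0.210). What sets these 2 libraries apart was not tested. In iKO 3 the summed levels of the brain, meninges, muscle and blood lists were not the highest of the 12 libraries: those of red cells (123 CPM), oligodendrocytes and astrocytes (764 CPM) and skeletal muscle (68.0 CPM) ranked 3rd, 4th and 9th. Control 2 ranked 2nd in oligodendrocytes and astrocytes (1272 CPM) and in meninges and fibroblasts (2884 CPM), and 1st in the secretory granule list (2684 CPM), which sensory neurons also express.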

How the results depend on the processing

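Of 708 values of single members or pairs under all settings, 619 kept direction and call, 49 changed sign, 32 lost and 8 gained a call. Of those that changed sign, the pairs Gh and Dlk1, Prl and Pomc, and Pomc and Tshb had passed over all 12 libraries, and no other was called in either setting. The cause was not tested in any case.

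The 63 genes called between iKO and control became 138 with no filter, 332 with DESeq2 and 23 (without control 2) to 88 (without control 6) leaving out 1 library, with 24 to 35 without control 1, 3 or 5 or iKO 1, 5 or 6. For replicates 1 to 4 the 19 became 621, 137 and 2 (without iKO 4) to 18. For replicates 5 and 6 the 1 gene became 1014, 69 and 1 to 26 (without iKO 6), and 2 with DESeq2 size factors or without the sex covariate. With no filter edgeR estimated no variation between genes in the spread of the replicate-set fit, and Gh, Prl, Pomc and Cga were then called in replicates 1 to 4 and Gh, Prl and Dlk1 in replicates 5 and 6. For Gh the 1 gene became 4 with no filter, 2 without sex and 0 to 1 leaving out 1 library, the 0 being without iKO 3. Of 10 pairs the 9 passing became 0 in males and 3 (without iKO 3) to 10 (without control 1).

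The labels do not say what a shared replicate number means. Same-numbered libraries had correlated deviations over 0.1 in 4 of 6 pairs (-0.40 to 0.350), and 1 of 12 was most like its own number. These 6 values are too few to decide whether the samples were paired. With a replicate block the counts were 15 between iKO and control, 8 in replicates 1 to 4 and 0 with Gh, where the slope of Prl was 0.93 (adjusted p = 0.982). Signs changed with the block for iKO against control in Prl (-1.89), Cga (-0.46) and Tshb (-0.17), and in replicates 1 to 4 for Gh (-0.51), Prl (-1.64), Tshb (-0.10) and Dlk1 (-1.05). They also changed for the slopes of Cga (-0.70) and Dlk1 (-0.11) on Gh and of Prl (-0.20) and Dlk1 (-0.38) on Pomc.

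Other signs that changed were Gh without sex (1.51), Prl with DESeq2 (-0.89) and Dlk1 with bias-adjusted deviances (0.12) or without sex (0.56), and in males r of Gh and Dlk1 (-0.0017), Prl and Pomc (-0.37), Pomc and Tshb (-0.21) and Pomc and Dlk1 (-0.14). Leaving out 1 library, the log2 fold change between iKO and control ran for Gh from -1.32 to 0.90, Prl from -2.07 to 0.83, Tshb from -0.15 to 0.091 and Dlk1 from -1.41 to 0.14. In replicates 1 to 4 it ran for Gh from -0.38 to 2.51, Prl from -1.85 to 2.61, Cga from -0.79 to 1.69, Tshb from -0.094 to 0.30 and Dlk1 from -1.36 to 1.32. In replicates 5 and 6 it ran for Gh from -4.67 to 0.56, Prl from -3.90 to 0.22, Pomc from -0.17 to 0.15 and Cga from -4.37 to 1.27. Slopes on Pomc ran for Prl from -0.0048 to 1.07, Cga from -0.20 to 0.81 and Dlk1 from -0.21 to 0.71, and r of Pomc and Dlk1 from -0.014 to 0.60. The minimum of 50 reads, bias-adjusted deviances, males only, the residuals and the omission of iKO 3 with no filter were added after the data were seen. Depth limits Cga, Fshb, Pou1f1 and Ghrhr, which had under 10 reads in at least 6 libraries.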

Other observations

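Receptors for these hormones and genes downstream of growth hormone were measured in the same libraries. Of 10 listed receptors 5 passed the filter and were tested, and none of these was called with Gh, with Pomc or between groups. Among them Ghr, the growth hormone receptor, ran from 47.4 to 65.0 CPM and Prlr, the prolactin receptor, from 2.41 to 3.92 CPM. In iKO 3, with 1313 CPM of Gh, Ghr was at 57.3 CPM and Prlr at 3.67 CPM. The 7 genes listed for growth hormone signalling all passed the filter and none was called. Their slopes on Gh were positive for Cish (0.042 ± 0.0194), Igfals (0.063 ± 0.0553), Stat5a (0.065 ± 0.0340) and Stat5b (0.018 ± 0.0148). They were negative for Jak2 (-0.031 ± 0.0179), Igf1 and Socs2. Igf1, the growth factor induced by growth hormone, ran from 31.6 to 43.2 CPM with a slope on Gh of -0.01 ± 0.0126 (edgeR adjusted p = 0.806), and Socs2, a feedback inhibitor, from 19.3 to 23.9 CPM with -0.02 ± 0.0164 (edgeR adjusted p = 0.818). Among 9 secretory granule genes, also made by sensory neurons, none was called. Chgb was highest in iKO 3 at 267 CPM against 173 to 218 CPM elsewhere, while all the others peaked in other libraries. By the sum of this list iKO 3 ranked 7th.

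Peptides of the hypothalamus and posterior lobe gave another order of libraries. Avp peaked in control 3 at 6.65 CPM, followed by iKO 3 with 3.63 CPM and control 6 with 3.29 CPM, and stayed at or under 0.839 CPM in the rest. Oxt peaked in control 6 at 4.19 CPM, followed by control 3 with 1.6 CPM and iKO 3 with 1.52 CPM, and stayed at or under 0.420 CPM in the rest. Control 2, the 2nd highest library in Gh, had 0 reads of Avp and 3 of Oxt. Other tissue lists peaked in other libraries: skeletal muscle in iKO 5 (941 CPM), red cells in control 6 (842 CPM) and oligodendrocytes and astrocytes in control 6 (2298 CPM). Their part in the levels of the members was not tested.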
